A study of Mus musculus with 29 samples.

Results

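The gastrokines Gkn1, Gkn2 and Gkn3, the trefoil factors Tff1, Tff2 and Tff3 and the mucins Muc1, Muc5ac and Muc6 were examined in a mouse model of gastric cancer spread over the peritoneum. These 9 genes were chosen by symbol, and all 9 were found among the 24421 rows of the count table. The data were bulk RNA-seq libraries of 29 mice, 1 library per mouse, made from stripped peritoneum that carried tumor nodules or, in cured mice, none. Every mouse was a female C57BL/6J of 5 to 6 weeks at the start that had been injected IP with YTN16 cells, a mouse gastric cancer line, so the controls carried the same tumor. Untreated mice were given PBS, and treated mice were given antibodies that block the checkpoint receptors PD1 (10 mg/kg) or CTLA4 (5 mg/kg), or, as dual ICI (immune checkpoint inhibition), both. Treatment was on days 5, 8 and 12, and the mice kept to week 5 were treated again on days 21 and 28. On day 21 (week 3) there were 5 untreated and 5 dual ICI mice. On day 35 (week 5) 5 mice had been left untreated, 5 had received anti-PD1 alone and 4 anti-CTLA4 alone. The study lost 1 further anti-CTLA4 mouse before autopsy, so the 4 are those that lived to day 35. Of 5 dual ICI mice at week 5, 2 were uncured and 3 cured. The outcome of the dual ICI mice was taken from the mouse numbers that the study calls cured or uncured, since the sample labels do not hold it. The library names of weeks 3 and 5 in the count table fall in separate number ranges. Week and any other difference between those ranges cannot be told apart.

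The surface of the stomach is covered by a mucus gel that its epithelium secretes. MUC5AC from surface cells and MUC6 from gland and neck cells form the gel, and MUC1 stays anchored in the apical membrane of epithelial cells. Trefoil factors are small, disulfide-rich peptides secreted together with mucins: TFF1 and TFF2 are made mainly in the stomach and TFF3 mainly in intestinal goblet cells, and they act in repair of injured epithelium. Gastrokines are secreted proteins with a BRICHOS domain, made by surface cells (GKN1, GKN2) and, in mice, by mucous neck cells (GKN3). Gastric tumors often lose some of these genes and keep others.

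The genes lie in a few clusters (GRCm38, GENCODE vM21). The gastrokines span 43.3 kb of chromosome 6: Gkn1 at chr6:87345650-87350942 on the minus strand, Gkn2 at chr6:87373357-87379497 on the plus strand and Gkn3 at chr6:87383256-87388935 on the minus strand. The trefoil factors span 40.0 kb of chromosome 17, all on the minus strand: Tff3 at chr17:31125306-31129646, Tff2 at chr17:31141049-31144282 and Tff1 at chr17:31161395-31165277. Muc6 (chr7:141633456-141655319, minus strand) and Muc5ac (chr7:141788972-141819231, plus strand) are near each other on chromosome 7, and Muc1 is on chromosome 3 (chr3:89229057-89233381, plus strand). Of the 9 genes, Tff1 alone shares exon bases with another annotated gene: 221 bases, 31.4% of its exon length, with the antisense gene Gm15318. Whether counting used strand is not given in the sources used here, so reads of this pair may not have been told apart.

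The promoters of the 3 gastrokines are shown because these neighbouring genes were read at very different levels. Each sequence is 300 bases of RefSeq on GRCm38.p6, 5′ to 3′ on the gene's strand, from 250 bases before the start of transcription to 50 after it: chr6:87350866-87351165 (minus) for Gkn1, chr6:87373115-87373414 (plus) for Gkn2 and chr6:87388886-87389185 (minus) for Gkn3. Capitals mark GATAA, the core letters that GATA factors such as the gastric GATA4 and GATA6 bind, or its reverse complement TTATC, and, in Gkn2, TATAAA.
Gkn1: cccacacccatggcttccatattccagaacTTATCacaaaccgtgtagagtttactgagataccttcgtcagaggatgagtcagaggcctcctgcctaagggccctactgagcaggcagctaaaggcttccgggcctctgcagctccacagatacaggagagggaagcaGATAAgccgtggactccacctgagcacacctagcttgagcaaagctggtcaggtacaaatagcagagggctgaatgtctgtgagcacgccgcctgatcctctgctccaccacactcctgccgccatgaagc
Gkn2: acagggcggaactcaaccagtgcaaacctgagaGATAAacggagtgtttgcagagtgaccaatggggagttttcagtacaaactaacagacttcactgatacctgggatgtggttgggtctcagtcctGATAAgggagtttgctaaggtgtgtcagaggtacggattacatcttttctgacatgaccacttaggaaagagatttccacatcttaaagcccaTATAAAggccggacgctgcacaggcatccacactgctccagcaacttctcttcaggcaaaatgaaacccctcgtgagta
Gkn3: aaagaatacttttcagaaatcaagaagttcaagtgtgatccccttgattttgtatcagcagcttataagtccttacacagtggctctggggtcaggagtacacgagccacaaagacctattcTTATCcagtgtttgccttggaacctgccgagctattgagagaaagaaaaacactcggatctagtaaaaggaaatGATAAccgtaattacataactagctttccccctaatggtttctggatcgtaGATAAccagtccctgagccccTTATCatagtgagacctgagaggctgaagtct
GATAA or TTATC was present in 25.4% of 32851 RefSeq promoters of this length. Gkn3 held 4 matches, a number reached by 0.204% of the promoters, and Gkn1 and Gkn2 held 2 each, which 5.27% of the promoters reached or passed. TATAAA (or TTTATA, in 13.6% of the promoters) was present in Gkn2 at position -29, and in Muc1 at position -31. Muc6 held 2 GATAA matches and Muc1 none. The FOXA-like TGTTTAC (or GTAAACA, in 3.65% of the promoters) was in none of these 5. Promoters of Tff1, Tff2, Tff3 and Muc5ac were not used here. A match is a run of letters and no evidence that a factor was bound.

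Library totals were 25989217 to 31219650 counts. The tissue was checked with a list of 12 general epithelium genes (Epcam, Cdh1, claudins, Esrp1 and others, none of them among the 9). Its summed level was 317 to 2060 CPM (counts scaled to a common library total) in 25 of the libraries, and 3.72 to 13.4 CPM in the 3 cured mice. Anti-PD1 replicate 5 stood apart from its group: its epithelium list was at 10.1 CPM, within the range of the cured mice, and its skeletal muscle list took 22.1% of its counts, against 22.6% to 24.4% in the cured mice. The study states that 1 anti-PD1 mouse was cured without giving its number, so this library was kept in its labelled group, and results that rest on it are given with and without it. Untreated replicate 2 of week 5 was also low in epithelium (350 CPM against 1110 to 1670 CPM in the other 4). In bulk tissue, fewer tumor cells and less RNA of a gene per tumor cell cannot be told apart.

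The 9 genes fell into well-read and barely read ones. Gkn3, Muc1 and Muc6 had more than 10 counts in all 29 libraries, Tff2 in 22 and Tff3 in 20. Gkn1, Gkn2, Tff1 and Muc5ac stayed at or under 29, 31, 27 and 110 counts, and had more than 10 counts in 8, 5, 2 and 1 libraries. Muc5ac did not pass the filter on low counts in any of 8 comparisons, Tff1 passed it in 2, Gkn2 in 3 and Gkn1 in 6, whereas the other 5 genes passed in every one. Levels of different genes were compared per kb of exon, as CPM on TMM-scaled library sizes (edgeR's trimmed-mean scaling). In untreated mice at week 5, Tff2 was highest with 64.1 ± 45.8 CPM per kb (SD, n = 5), followed by Muc1 with 39.2 ± 16.4, Tff3 with 21.5 ± 16.6 and Gkn3 with 6.92 ± 3.36. Tff2 and Muc1 differed by less than the larger SD, and Muc1 and Tff3 by about the larger SD. Gkn2 was at 0.473 ± 0.431, Gkn1 at 0.418 ± 0.251, Tff1 at 0.36 ± 0.431, Muc6 at 0.251 ± 0.115 and Muc5ac at 0.0622 ± 0.133 CPM per kb. The tumor-bearing peritoneum held RNA of the membrane mucin Muc1 and of Tff2 and Tff3, and little of the gel-forming gastric mucins. At week 3 the order was another: in untreated mice Muc1 was at 17.0 ± 5.08, Tff2 at 6.39 ± 3.21, Gkn3 at 5.45 ± 1.96 and Tff3 at 1.55 ± 0.906 CPM per kb (SD, n = 5), with Tff2 and Gkn3 closer than their SDs.

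**Figure D1:**
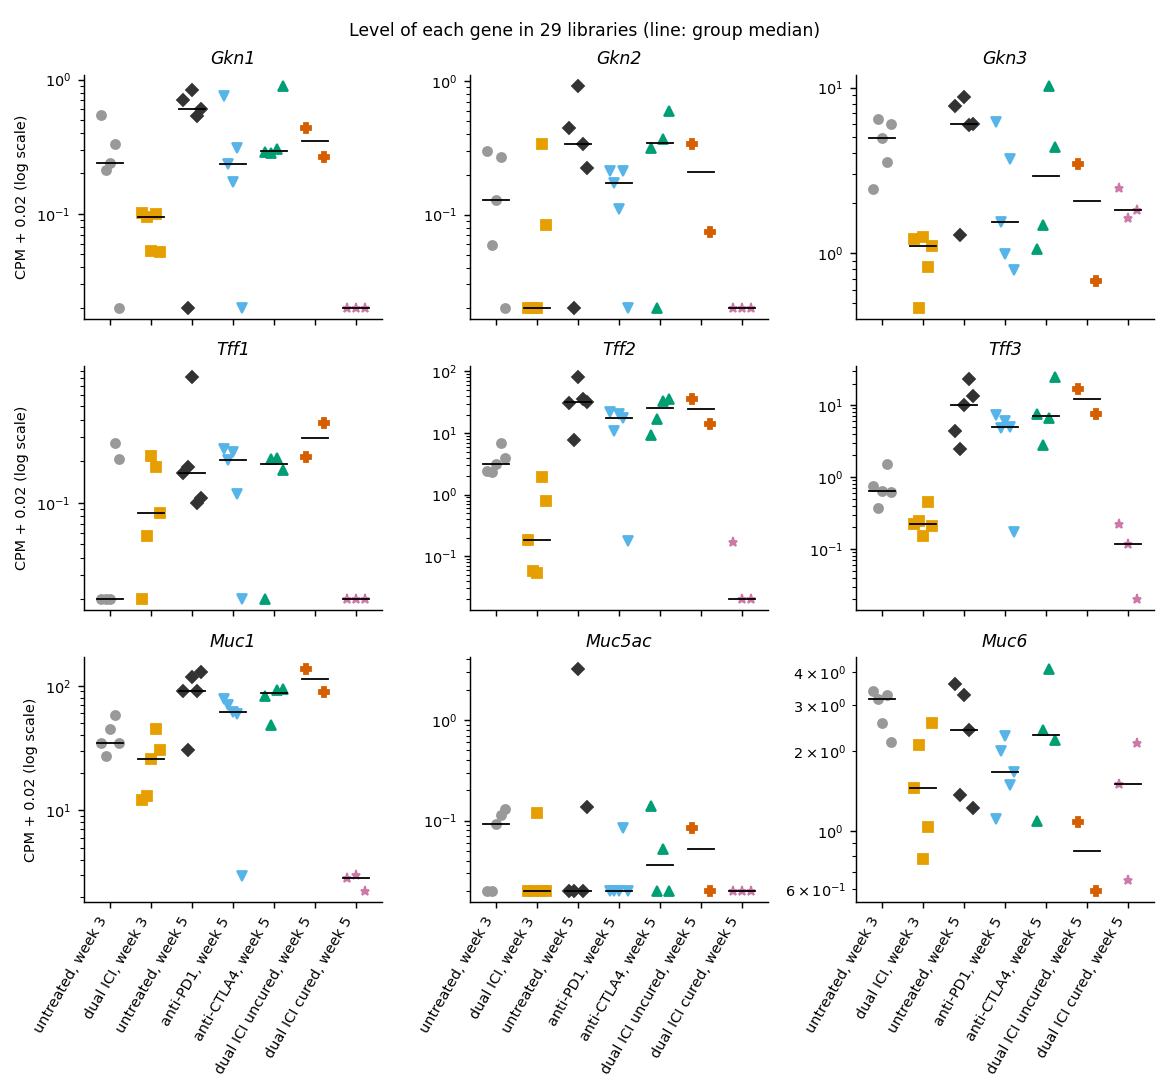
CPM of each of the 9 genes in 29 libraries, plotted as CPM + 0.02 on a log axis, with 1 point per mouse, the 7 groups along the x axis and a line at each group median. The 3 cured mice have the lowest group medians of Tff2, Tff3 and Muc1, with anti-PD1 replicate 5 (Muc1 2.94 CPM) near them and some dual ICI mice of week 3 below the highest cured mouse for Tff2 and Tff3, whereas other groups have the lowest medians of Gkn3 and Muc6.

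The order of the 7 groups was read from their mean CPM. Tff2 ran from 37.5 ± 26.7 in untreated mice at week 5 (SD, n = 5) over 24.8 ± 15.3 in uncured (n = 2), 23.9 ± 12.9 in anti-CTLA4 (n = 4) and 14.2 ± 8.95 in anti-PD1 mice (n = 5) to 3.73 ± 1.88 and 0.579 ± 0.796 in untreated and dual ICI mice at week 3 (n = 5 each) and 0.0512 ± 0.0887 in cured mice (n = 3). Neighbours in this order among the first 4 groups did not differ by more than the larger SD. Tff3 and Muc1 were both highest in uncured mice (12.0 ± 6.47 and 114 ± 33.9 CPM) and lowest in cured mice (0.101 ± 0.102 and 2.67 ± 0.392 CPM), with the 2 groups of week 3 next to last. Here too no step among the first 4 groups exceeded the larger SD. Gkn3 was ordered differently: untreated mice at week 5 (5.93 ± 2.88 CPM) and week 3 (4.67 ± 1.68 CPM) were highest and dual ICI mice at week 3 were lowest (0.95 ± 0.326 CPM, n = 5), below the cured mice (1.95 ± 0.447 CPM, n = 3). For Gkn3, that last step exceeded the larger SD and the other steps did not. Muc6 ran from 2.89 ± 0.521 CPM in untreated mice at week 3 to 0.816 ± 0.344 CPM in uncured mice, and no step between neighbours exceeded the larger SD.

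The first comparison asked whether dual ICI changed the genes at week 3, when tumor was still present. Gkn3 fell, and Tff2, Tff3 and Muc1 had lower means without passing the test; 4 of the 9 genes (Gkn1, Gkn2, Tff1, Muc5ac) were too low to be tested. Gkn3 was at 2.42, 6.43, 4.95, 3.54 and 6.01 CPM in the untreated mice and at 1.19, 0.447, 1.22, 0.802 and 1.08 CPM in the dual ICI mice. Every dual ICI mouse lay below every untreated mouse. Its log2 fold change was -2.29 (SE 0.34, edgeR adjusted p = 0.0176), 4.89-fold lower with dual ICI. Of 15503 genes tested, 0.103% fell at an adjusted p under 0.05 in this comparison. Gkn3 lost the call without untreated replicate 5 (edgeR adjusted p = 0.0713), without dual ICI replicate 3 (0.0625), without dual ICI replicate 5 (0.0504) or with all 29 libraries in 1 fit (0.0974), and its log2 fold change stayed between -2.45 and -2.11 under all 18 alternatives.

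Tff2 was at 2.42, 2.32, 3.16, 6.9 and 3.86 CPM in the untreated mice of week 3 and at 0.165, 0.0373, 0.0331, 1.9 and 0.764 CPM in the dual ICI mice. These groups did not overlap either, but the dual ICI mice spread over a wide range, and in 3 of them Tff2 rested on 1 to 4 counts. The log2 fold change was -2.59 (SE 0.79, edgeR adjusted p = 0.208). Tff3 was at 0.736, 0.348, 0.618, 1.52 and 0.594 CPM without treatment and at 0.206, 0.224, 0.132, 0.428 and 0.191 CPM with dual ICI. For Tff3, dual ICI replicate 4 alone lay within the untreated range, and the log2 fold change was -1.65 (SE 0.44, edgeR adjusted p = 0.151). Muc1, at 27.2 to 58.1 CPM in untreated and 12.0 to 44.6 CPM in dual ICI mice, overlapped (log2 fold change -0.65, SE 0.35, edgeR adjusted p = 0.566). Muc6, at 2.15 to 3.36 and 0.761 to 2.55 CPM, overlapped as well (log2 fold change -0.88, SE 0.31, edgeR adjusted p = 0.313). Gkn3 and Tff2 were the tested members without overlap, 2 of 5, against 1.35% of all tested genes that lay lower without overlap. Tff2 and Tff3 would not have passed the filter on low counts by their dual ICI mice alone, where Tff3 had 4 to 16 counts. Both genes could thus hardly be called other than lower. Of the genes left untested, Gkn1 had 0 to 15 counts in untreated and 1 to 3 in dual ICI mice.

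The amount of epithelium differed widely between mice of the same group at week 3, from 317 to 1180 CPM of the epithelium list in untreated and from 326 to 1540 CPM in dual ICI mice, with 0 of its 12 genes called and a median log2 fold change of -0.03 (all genes tested, 0.02). The genes were therefore also expressed relative to it. Tff2 had 3.15, 6.87, 4.56, 6.67 and 6.64 counts per 1000 counts of the epithelium list in untreated mice and 0.403, 0.0995, 0.044, 1.48 and 0.932 in dual ICI mice. Tff3 had 0.958, 1.03, 0.891, 1.47 and 1.02 in untreated and 0.504, 0.597, 0.176, 0.333 and 0.233 in dual ICI mice. Muc1 had 45.5, 80.6, 64.7, 56.1 and 59.5 in untreated and 29.3, 34.3, 34.2, 34.7 and 36.9 in dual ICI mice. Gkn3 had 3.15 to 19.0 in untreated and 0.624 to 2.92 in dual ICI mice. On this scale all 4 genes lay lower in every dual ICI mouse than in any untreated mouse, which 0.78% of the genes tested did. Tff2 and Tff3 were tested mainly through the untreated mice, which favors this direction. For Gkn3 the scale has a limit, since this gene followed the epithelium score weakly (r = 0.324 over 26 libraries). Cured mice, with 3.72 to 13.4 CPM of the epithelium list, still held 1.61 to 2.46 CPM of Gkn3. Whether Gkn3 RNA came from epithelium was not tested. Muc6 overlapped (3.15 to 9.27 against 0.79 to 5.57).

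**Figure D2:**
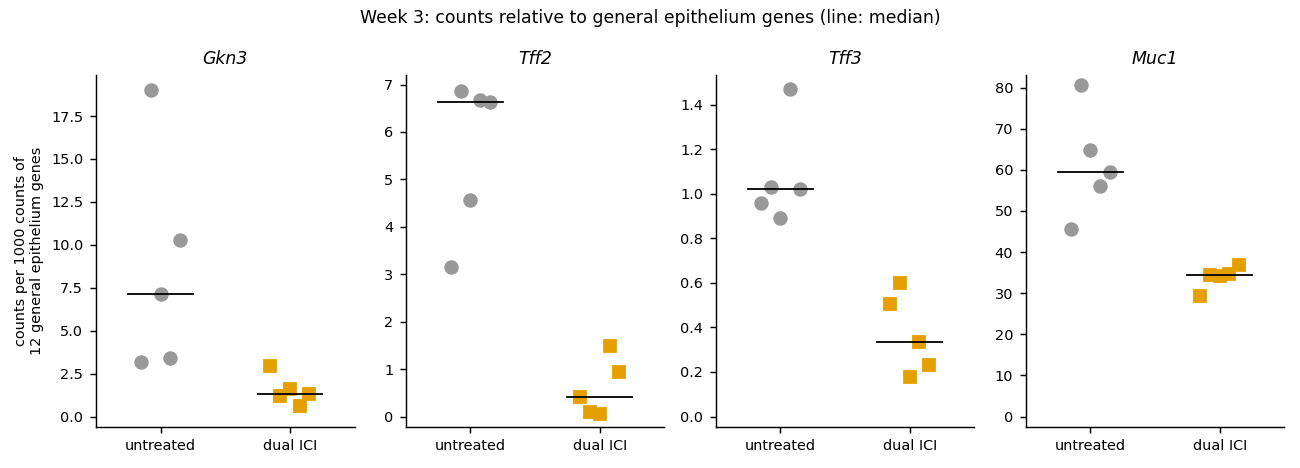
Counts of Gkn3, Tff2, Tff3 and Muc1 per 1000 counts of 12 general epithelium genes at week 3, with 1 point per mouse (5 untreated, 5 dual ICI), a line at the median and axes that start at 0. In each panel the dual ICI mice lie below the untreated mice, with Muc1 at 29.3 to 36.9 against 45.5 to 80.6. Whether Gkn3 RNA came from epithelium was not tested.

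A fit with the epithelium score (mean log2 CPM of the 12 genes) as a covariate called the same 4 genes lower in dual ICI mice, with 1.95% of all genes tested called lower in that fit. Tff2 and Tff3 passed the filter on low counts mainly through the untreated mice, so they could hardly be called other than lower here. The log2 fold changes were -2.98 for Tff2 (SE 0.52, edgeR adjusted p = 0.0052), -2.27 for Gkn3 (SE 0.32, adjusted p = 0.00134), -1.59 for Tff3 (SE 0.37, adjusted p = 0.0234) and -0.71 for Muc1 (SE 0.12, adjusted p = 0.00442). Muc6 did not pass (-0.91, SE 0.30, adjusted p = 0.099). With each mouse left out in turn, Tff2, Gkn3 and Muc1 kept their calls in all 10 fits and Tff3 lost its call in 3, without untreated replicate 4 (edgeR adjusted p = 0.0789), dual ICI replicate 3 (0.0584) or dual ICI replicate 4 (0.0696). Muc6 gained one without dual ICI replicate 5 (0.0196). Of the 12 genes behind the score, 1 was called higher in this fit and 0 lower. It was Esrp1, with a log2 fold change of 0.74 (SE 0.092, edgeR adjusted p = 0.000619). Other tissue markers moved with the groups in this fit: 5 of 8 leukocyte genes were called higher, as 3.75% of all genes were, and 7 of 8 adipocyte genes lower. The part of these genes in the result was not tested.

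Other mucous genes from the hand-written lists were called in both directions in that fit. Of the 24 mucin glycosylation and secretion genes tested, 3 were lower and 0 higher: Spdef, a transcription factor of mucus-secreting cells, at -1.61 (SE 0.39, edgeR adjusted p = 0.0306), the fucosyltransferase Fut2 at -1.34 (SE 0.23, adjusted p = 0.0049) and the core-branching enzyme Gcnt3 at -0.52 (SE 0.11, adjusted p = 0.0148). Of 6 intestinal goblet genes, 2 were lower, Spink4 at -1.55 (SE 0.18, adjusted p = 0.000377) and again Spdef. Pgc, the pepsinogen C gene, was lower at -1.45 (SE 0.21, adjusted p = 0.00153), the sole call among 5 gastric gland genes. Of 8 surface mucous genes, Foxq1 and Ctse were lower (-0.84 and -0.56) and Anxa10 was higher (0.88), and of 4 gland mucous and neck genes Wfdc2 was lower (-0.41). Of 8 other mucins, Muc4, a membrane mucin like Muc1, was higher (0.38, SE 0.094, adjusted p = 0.0331). None of 5 other BRICHOS genes was called. The median log2 fold changes of these lists were -0.11 (glycosylation and secretion), -0.68 (goblet), -0.39 (gastric gland), -0.24 (surface), -0.32 (gland and neck), -0.067 (other mucins) and 0.034 (other BRICHOS), against -0.005 over all genes. Without the covariate, 0 genes of these 7 lists were called at week 3.

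Between week 3 and week 5 without treatment, both Tff2 and Tff3 rose by about a factor of 10 or more. Tff2 rose from 2.32 to 6.9 CPM at week 3 to 31.1, 7.6, 80.9, 35.7 and 31.9 CPM at week 5. Tff3 rose from 0.348 to 1.52 CPM to 4.32, 2.44, 10.1, 23.0 and 13.3 CPM. Neither overlapped between the weeks, and each had its lowest value of week 5 in replicate 2, the library low in epithelium. The log2 fold change was 3.32 for Tff2 (SE 0.53, 9.99-fold) and 3.78 for Tff3 (SE 0.61, 13.8-fold), each with an edgeR adjusted p of 0.00633. Muc1 rose 2.30-fold, from 27.2 to 58.1 CPM to 90.9, 30.6, 118, 90.4 and 129.8 CPM (log2 fold change 1.20, SE 0.33, adjusted p = 0.0386), with overlap through replicate 2. These 3 of 6 tested genes stood against 6.24% of all genes tested that were called higher, and the 2 without overlap against 6.02%. Gkn3 (log2 fold change 0.34, SE 0.42), Gkn1 (1.06, SE 0.74) and Muc6 (-0.30, SE 0.31) did not pass.

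Epithelium genes were higher at week 5 as well: all 12 had a positive log2 fold change, with a median of 0.80, and 2 of them were called. Other tissue markers differed between the weeks too: 4 of 8 fibroblast genes were called lower (median log2 fold change -0.86) and 2 of 5 liver genes higher (median 1.30), where 4.58% of all genes tested were called lower. The summed fibroblast list was at 12700 to 25800 CPM at week 3 and 5200 to 14300 CPM at week 5, and the liver list at 37.9 to 73.2 and 63.1 to 172 CPM. Their part in the rise was not tested. Per 1000 counts of the epithelium list, Tff2 went from 3.15 to 6.87 at week 3 to 17.2 to 62.5 at week 5, and Tff3 from 0.891 to 1.47 to 3.15 to 19.5, still without overlap. With the epithelium score as a covariate, Tff2 (log2 fold change 2.20, SE 0.41, edgeR adjusted p = 0.0206) and Tff3 (2.67, SE 0.48, adjusted p = 0.0202) remained called and Muc1 did not (0.37, SE 0.15, adjusted p = 0.167). The Muc1 call was also lost in the fit of all 29 libraries (adjusted p = 0.0978) and in 8 of 10 fits with a mouse left out, with adjusted p between 0.0618 and 0.0942, the exceptions being untreated replicate 4 of week 3 and replicate 2 of week 5.

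**Figure D3:**
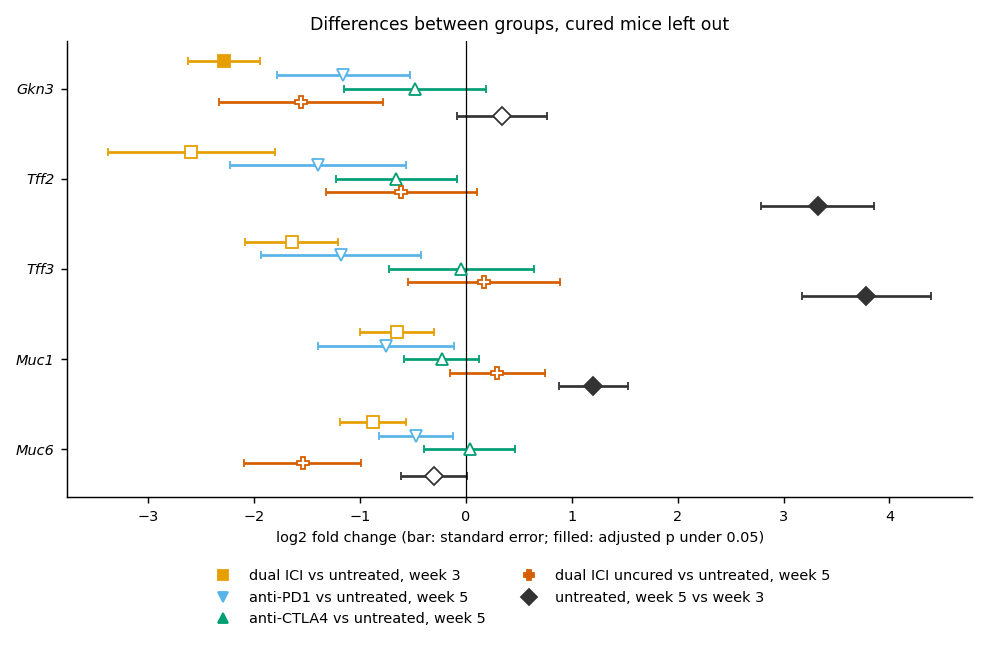
Log2 fold changes of the 5 genes that passed the filter in every comparison, for dual ICI against untreated mice at week 3, anti-PD1, anti-CTLA4 and dual ICI-uncured against untreated mice at week 5, and untreated mice at week 5 against week 3 (comparisons with cured mice are not plotted), with bars of 1 standard error from edgeR and filled symbols where the adjusted p was under 0.05. Gkn3 with dual ICI at week 3 (-2.29) and the rise of Tff2 (3.32), Tff3 (3.78) and Muc1 (1.20) from week 3 to week 5 are the filled symbols among these 5 comparisons.

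At week 5, the monotherapies were each compared with the same 5 untreated mice, so the comparisons of this week share their controls. No member was called with anti-PD1 or with anti-CTLA4, nor was any gene (0.0% of 15640 and 0.0% of 15781 genes tested by edgeR). At an unadjusted p under 0.05 there were 205 and 128 genes, and DESeq2 called 0 in each. With anti-PD1, Tff2 was at 22.2, 10.7, 20.02, 17.7 and 0.155 CPM, where the last value is that of replicate 5. Leaving out that library moved the log2 fold change of Tff2 from -1.40 (SE 0.83) to -1.09, that of Tff3 from -1.18 (SE 0.75) to -0.89, that of Muc1 from -0.75 (SE 0.64) to -0.46 and that of Gkn3 from -1.16 (SE 0.63) to -0.95, with an edgeR adjusted p of 0.995 for each. With anti-CTLA4, Tff2 was at 9.17, 17.1, 33.7 and 35.7 CPM (log2 fold change -0.66, SE 0.57) and Gkn3 at 1.04, 1.46, 10.2 and 4.34 CPM (-0.48, SE 0.67). For Gkn3 the highest and the lowest anti-CTLA4 mouse thus differed more than any group means did. Standard errors of the members tested were 0.35 to 0.87 (anti-CTLA4) and 0.35 to 0.83 (anti-PD1) on the log2 scale. Changes of that size were not detectable, and larger ones could be missed too, as Tff2 at -1.40 with anti-PD1 did not pass.

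In the 2 dual ICI-uncured mice of week 5, Tff2, Tff3 and Muc1 were still well read. Tff2 was at 35.6 and 14.0 CPM and Tff3 at 16.6 and 7.45 CPM, within the range of the untreated mice. Muc1 was at 138 and 89.6 CPM, against 30.6 to 129.8 CPM in untreated mice. Both uncured libraries held more epithelium (1860 and 2050 CPM of the list) than the untreated ones (350 to 1670 CPM). Per 1000 counts of that list, Tff2 was at 23.0 and 8.37, against 17.2 to 62.5 in untreated mice. Muc1 was at 88.8 and 53.6 against 66.3 to 91.8, and Tff3 at 10.7 and 4.45 against 3.15 to 19.5. Uncured replicate 5 thus lay below every untreated mouse for Tff2 and Muc1 on this scale. Both uncured mice did so for Gkn3 (2.22 and 0.391 against 2.85 to 6.8) and Muc6 (0.684 and 0.343 against 0.851 to 3.03). These 2 genes followed the epithelium score weakly or not at all, and the share of all genes doing so on this scale was not counted. No member was called (0.0% of 16156 genes tested by edgeR, with 787 at an unadjusted p under 0.05 and 17 called by DESeq2, no member among them). The log2 fold changes were -0.61 for Tff2 (SE 0.71), 0.17 for Tff3 (SE 0.72) and 0.29 for Muc1 (SE 0.45). Gkn3, at 3.43 and 0.655 CPM against 1.26 to 8.79 CPM, had a log2 fold change of -1.56 (SE 0.78, edgeR adjusted p = 0.735). Muc6, at 1.06 and 0.573 CPM against 1.2 to 3.58 CPM, lay lower in both uncured mice than in any untreated mouse (log2 fold change -1.54, SE 0.55, edgeR adjusted p = 0.735). In CPM it was the sole one of the 8 members tested to do so, and 8.33% of all genes tested did. Other lists moved with the lower Gkn3 and Muc6, with 0 genes called: all 18 skeletal muscle genes (median log2 fold change -1.11), all 8 adipocyte genes (-1.11) and all 8 mesothelium genes (-0.75) had a negative log2 fold change, and all 8 leukocyte genes a positive one (median 0.78), against a median of -0.01 over all genes. The summed skeletal muscle list was at 56200 and 79000 CPM in uncured mice and 57700 to 210000 CPM in untreated mice, and the leukocyte list at 365 and 421 CPM against 85.1 to 345 CPM. Their part in the lower values was not tested.

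Whether the difference from untreated mice was the same at week 5 (uncured) and week 3 (dual ICI) was tested with an interaction term, and no member was called (0.0% of 16542 genes by edgeR, 1050 at an unadjusted p under 0.05, 1 called by DESeq2). The difference between the weeks was 1.99 for Tff2 (SE 1.08, edgeR adjusted p = 0.707), 1.84 for Tff3 (SE 0.87, adjusted p = 0.707), 0.97 for Muc1 (SE 0.61, adjusted p = 0.707) and 0.74 for Gkn3 (SE 0.77, adjusted p = 0.786) on the log2 scale. The term compares the differences from untreated mice, not the levels, which were far apart for Tff2 (at most 1.9 CPM in dual ICI mice of week 3, at least 14.0 CPM in uncured mice) and for Tff3 (at most 0.428 and at least 7.45 CPM).

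In the 3 cured mice, 6 of the 9 genes had 4 counts or fewer in every library, while Muc1, Gkn3 and Muc6 were still read. Gkn1, Gkn2, Tff1 and Muc5ac had 0 counts in all 3 libraries, where a count of 0 allows up to 3 counts in a library, about 0.148 CPM (counting error only). Tff2 had 3, 0 and 0 counts, Tff3 had 4, 2 and 0, and Muc1 had 55, 61 and 46, or 2.82, 2.97 and 2.23 CPM. Gkn3 had 48, 33 and 37 counts (2.46, 1.61 and 1.79 CPM) and Muc6 29, 13 and 44 (1.49, 0.633 and 2.13 CPM). Against untreated mice of week 5, 5 of the 6 members tested were called lower, where 26.7% of 15816 genes were. Gkn1, Tff2 and Tff3 passed the filter on low counts through the untreated mice alone, so they could hardly be called other than lower. Tff2, Tff3 and Muc1 lay lower without overlap, as 26.9% of genes did. Muc1 was 33.8-fold lower (log2 fold change -5.08, SE 0.48, edgeR adjusted p = 0.000147) and Tff3 also fell (log2 fold change -6.65, SE 1.05, adjusted p = 0.00115). Tff2, called at an adjusted p of 0.000286, had 6019 counts in untreated against 3 in cured mice, a ratio of 797 (95% exact counting interval 273 to 3870). This interval pools the mice of a group and leaves out the spread between them, which was 187 to 2761 counts in untreated mice. Gkn1 was at least 3.52-fold lower, with the floor of 3 counts per library (edgeR adjusted p = 0.0211), and lost its call without any 1 of the 3 cured mice (adjusted p 0.0511 to 0.055).

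Gkn3 was 2.98-fold lower in cured than in untreated mice (log2 fold change -1.58, SE 0.52, edgeR adjusted p = 0.0332), with overlap through untreated replicate 2 at 1.26 CPM. This call was lost in 9 of 15 alternatives, among them 7 of 8 fits with a mouse left out (all but untreated replicate 2, adjusted p 0.058 to 0.11). Muc6 did not pass (-0.71, SE 0.49, adjusted p = 0.253). All 12 genes of the epithelium list were lower in cured mice, with a median log2 fold change of -6.33. Skeletal muscle genes went the other way, with 7 of 18 called higher, where 18.0% of all genes were. How far the lower values rest on the lack of epithelium in these samples cannot be told apart from the outcome.

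Outcome under the same treatment gave the same split. Uncured mice had more Tff2 than cured mice, 1621 counts against 3 (edgeR adjusted p = 8.11e-06). The ratio was 484 (95% exact counting interval 165 to 2350, which leaves out the spread between mice). Tff3 was 113-fold higher (log2 fold change 6.82, SE 0.60, adjusted p = 1.49e-05) and Muc1 41.6-fold higher (5.38, SE 0.21, adjusted p = 4.97e-07). These 3 of 5 members tested stood against 36.9% of 15796 genes called higher, and their lack of overlap against 43.7%. Tff2 and Tff3 passed the filter on low counts through the uncured mice alone, so they could hardly be called other than higher. Gkn3 was at 2.04 ± 1.97 CPM in uncured (SD, n = 2) and 1.95 ± 0.447 CPM in cured mice (n = 3), a log2 fold change of 0.02 (SE 0.59, edgeR adjusted p = 0.978). Without uncured replicate 1 it turned to -1.58. That fit has 1 uncured mouse, assumed to vary like the 3 cured mice, which alone give its spread. The Gkn3 difference also turned negative without cured replicate 3 (-0.11) or cured replicate 4 (-0.058), so its sign was not settled. Muc6 was 0.816 ± 0.344 CPM in uncured and 1.42 ± 0.751 CPM in cured mice (-0.83, SE 0.53, adjusted p = 0.19), and was called lower in uncured mice without cured replicate 3 (adjusted p = 0.0457). Other tissue lists differed by outcome too, with 18 of 18 skeletal muscle and 8 of 8 adipocyte genes called lower in uncured mice, where 33.1% of all genes were, and 7 of 8 leukocyte genes called higher.

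**Figure D4:**
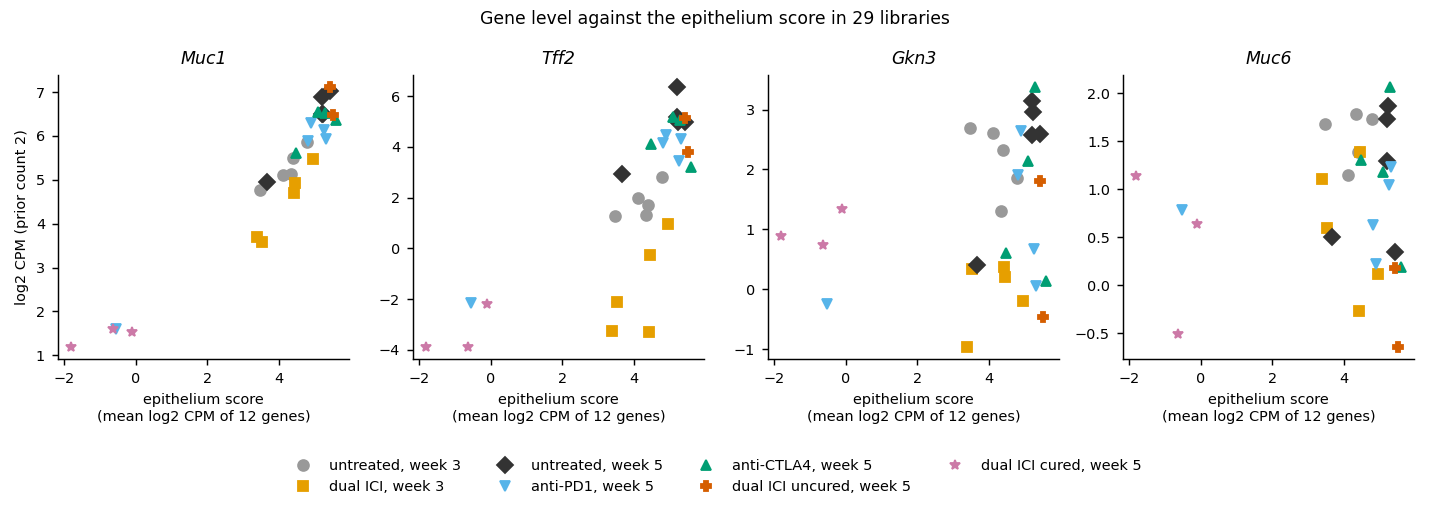
Log2 CPM (prior count 2) of Muc1, Tff2, Gkn3 and Muc6 against the epithelium score in 29 libraries, with 1 point per mouse and a symbol per group. Muc1 follows the score (r = 0.922 over the 26 libraries of mice not called cured), the dual ICI mice of week 3 lie low for Tff2 and Gkn3 at a given score, and Muc6 does not follow it (r = -0.0478).

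Across the 26 libraries of mice not called cured, the genes differed in how closely they followed the epithelium score, as Pearson correlations of log2 CPM that also share week, depth and scaling. Muc1 followed it most (r = 0.922), Tff2 (0.655) and Tff3 (0.648) less, Gkn3 weakly (0.324) and Muc6 not (-0.0478). Without anti-PD1 replicate 5 the values were 0.907, 0.72, 0.768, 0.219 and -0.161. Tff2 and Tff3 correlated at 0.916 with each other and at 0.865 and 0.836 with Muc1, while Gkn3 reached 0.608 with Tff2 and Muc6 at most 0.49, with Gkn3. Among 15182 genes, those most like Tff2 were Gna14 (r = 0.939), Gabrp (0.933) and Ptgds (0.924). Among those most like Tff3 were the defensin Defb1 (0.929) and Ly6d (0.924). Muc1 was most like Reg1 (0.977), Fxyd3 (0.974) and Wnk4 (0.972). Gkn3 was most like Spdef (0.813), Ppp2r2b (0.8) and Eya2 (0.795), and Muc6 most like Id4 (0.604), Trpv4 (0.594) and Ankrd34a (0.58). The nearest genes of Muc6 were thus much less like it than those of the other 4 were.

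Other mucous genes were also lower in cured mice than in untreated mice of week 5, in a comparison where 26.7% of all genes tested were called lower and 18.0% higher. Called lower were 5 of 9 other mucins (led by Dpcr1, Muc13 and Muc4 at log2 fold changes of -8.23, -7.57 and -6.05), 7 of 8 surface mucous genes, 4 of 4 gland and neck genes and 17 of 24 glycosylation and secretion genes (Agr2 at -8.50, Gcnt3 at -8.31). So were 5 of 6 goblet genes and 3 of 5 gastric gland genes. The median log2 fold changes were -5.27 (other mucins), -6.88 (surface), -6.49 (gland and neck), -2.0 (glycosylation and secretion), -4.51 (goblet) and -2.24 (gastric gland), against -0.05 over all genes tested. Other BRICHOS genes, which many tissues express, were called in both directions: Itm2c was lower (-0.70, SE 0.18) and Itm2a higher (1.73, SE 0.24), 1 of 5 each way. Among genes of tissues that lie near the peritoneum, 4 of 5 tested liver genes were lower, led by Ttr (-10.90, SE 1.10), and none of the 8 exocrine pancreas genes passed the filter. The summed liver list overlapped, at 54.5 to 78.7 CPM in cured and 63.1 to 172 CPM in untreated mice. Of 8 mesothelium genes 4 were lower and 1 higher, of 8 fibroblast genes 1 was higher, of 8 adipocyte genes 2 were higher and of 7 leukocyte genes 1 was lower.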

How the data were processed

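RNA from stripped peritoneum of 29 mice was sequenced as paired-end reads of 150 bp. Per the study's methods the authors aligned reads with STAR 2.5.2b and counted them with HTSeq 0.6.1; the submitters' processing notes name STAR 2.7.0f, featureCounts 1.6.4 and mm10. The authors deposited raw, unnormalized counts listed by gene symbol. Annotation and strand setting are not given in the sources used here. Library totals of 25989217 to 31219650 counts limit precision for the low genes.

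Groups were compared with edgeR 4.0.16 in R 4.3.3 (TMM, filterByExpr by group, quasi-likelihood test, two-sided, Benjamini-Hochberg adjustment over all genes tested, called at adjusted p under 0.05), with only the compared groups in a fit. Standard errors are the log2 fold change divided by the root of the F statistic. CPM of single genes use TMM sizes over all libraries, and summed CPM of lists use library totals. DESeq2 1.42.0, 2 other normalizations, no filter, leaving out skeletal muscle genes, a fit of 29 libraries, the epithelium score as covariate, a replicate block, pooling the 5 dual ICI libraries of week 5 and leaving out each mouse were alternatives. Leaving out mice in the covariate fit was added after seeing the data. In counts simulated with 200 genes changed 4-fold, the test recovered 98.5% with 11 false calls for dual ICI at week 3, 83.5% with 10 for uncured and 89.5% with 9 for cured mice. The changed genes were drawn only from those above a cut on mean CPM. Gkn1, Gkn2, Tff1 and Muc5ac lay below that cut, as did Tff3 at week 3, so the recovery does not hold for them. Equal numbers of genes were raised and lowered and all others left unchanged. In the cured comparison 7067 of 15816 genes were called, so the simulated recovery and false calls do not describe that setting. The genes and 15 hand-written gene lists were chosen with earlier results of these data known. By rule, all 9 genes, at most 3 called genes per list and direction with the largest change, and the 3 genes most like each well-read member were named, except 1 that is not reported here. Symbols matched GENCODE vM21 for 95.7% of rows. Each library is a separate mouse. The replicate numbers of the sample labels were checked and gave no sign of pairs. The library names of the dual ICI mice of week 3 bear other numbers, which were not checked. Figures were drawn with matplotlib 3.10.9.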

Additional observations from a re-analysis of the deposited data

Results flagged for a closer look

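In 45 sets of values (a gene in a group of 4 or 5 mice) the highest or lowest mouse was compared with the rest of its group by Dixon's ratio, and 7 were set apart. The rate of about 1 in 20 by chance holds for normal values, not for counts near 0. A set with a single mouse above 0 is always set apart, so the 7 cannot be weighed against that rate. Untreated replicate 3 of week 5 was set apart for 2 genes, with Muc5ac at 3.23 CPM (110 counts, against 0 to 4 in the other 4 mice) and Tff1 at 0.791 CPM (27 counts, against 2 to 5). The same mouse had the highest Tff2, Gkn1, Gkn2 and Gkn3 of its group. Muc1 was low in anti-PD1 replicate 5, at 2.94 CPM against 59.3 to 78.9 CPM in the other 4. The other flags rest on few counts: Gkn1 at 0.881 CPM in anti-CTLA4 replicate 4, Gkn2 at 0.321 CPM in dual ICI replicate 4 of week 3, and Muc5ac at 0.0993 CPM in dual ICI replicate 3 of week 3 and at 0.0643 CPM in anti-PD1 replicate 4, which are 29, 12, 3 and 2 counts.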

How the results depend on the processing

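Of 936 alternative log2 fold changes, 857 kept their direction and side of the threshold, 29 lost a call, 7 gained one and 43 changed sign; the cause was not tested. At week 3, 1 member was called with dual ICI, and DESeq2 called 2, the replicate block 2, the epithelium covariate 4 and the fit of 29 libraries 0; with a mouse left out the count was 0 to 1. Cured against untreated mice gave 5, and 3 to 5 with a mouse left out (4 with the block). Uncured against cured mice gave 3, but 5 with DESeq2, 6 without the filter and 5 in the fit of 29 libraries. For anti-PD1, anti-CTLA4, uncured mice against untreated mice and the interaction, 0 members were called in every alternative.

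Sign changes were all in values that had not passed in the main test. In anti-CTLA4 mice the block turned Tff3 to 0.094, Muc1 to 0.030 and Muc6 to -0.18; with a mouse left out Gkn2 ran from -0.79 to 0.33, Tff3 from -0.93 to 0.44 and Muc6 from -0.34 to 0.28. In uncured mice the covariate gave -0.072 for Tff1, -0.31 for Tff3 and -0.12 for Muc1, and pooling all 5 dual ICI libraries, as the labels alone allow, gave -1.13 for Tff3 and -0.98 for Muc1. With a mouse left out Tff1 ran from -0.44 to 0.45, Tff3 from -0.50 to 0.66 and Muc1 from -0.031 to 0.56. Against cured mice, Gkn3 ran from -1.58 to 0.78. Over time the covariate turned Gkn1 to -0.49 and Gkn3 to -0.22. In the interaction the block turned Tff1 to 0.94, and with a mouse left out Gkn2 ran from -2.06 to 1.67, Gkn3 from -0.88 to 1.5 and Tff1 from -0.93 to 0.36.

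Deviations of same-numbered mice correlated with mixed signs (-0.307 to 0.642 at week 3), so the label numbers, which the block used, gave no sign of pairs. The block called Tff2 at week 3 (edgeR adjusted p = 0.0166) and lost Gkn3 in cured mice (adjusted p = 0.192); uncured and cured mice share no number, so that comparison has no block. The library totals leave Gkn1, Gkn2, Tff1 and Muc5ac near the floor of 3 counts in most mice, and 2 uncured mice give wide errors. Fits without an uncured mouse keep 1, which is assumed to vary like the other groups in the fit.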
